A study of Mus musculus with 8 samples.

Results

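RNA levels of 10 genes used as markers of hair follicle and epidermal stem cells were followed in cultured mouse keratinocytes (KCs). The 10 genes, Lgr4, Lgr5, Lgr6, Lrig1, Cd34, Sox9, Lhx2, Nfatc1, Tcf7l1 and Plet1, were the rows of the deposited gene tables with exactly these symbols, 10 of 41457 genes listed. They were chosen with the difference between the culture times already known, so their values are given as a description, without tests. The KCs came from tail skin of adult Wildtype C57BL/6 mice (C57BL/6J in the text of the study) and were grown untreated in serum-free, low-calcium KC medium. They were harvested after 1 week or 3 weeks of culture, with 4 samples at each time from 4 independent experiments. Per the study, KC batches were shared between the culture times, but the labels do not say which samples came from a common batch. RNA was measured by poly(A) mRNA-seq, with 13896807 to 20026084 reads on exons per sample at 1 week and 14096649 to 18127283 at 3 weeks. Since whole cultures were sequenced, fewer cells of a kind and less RNA per cell cannot be told apart.

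Stem cells of the mouse epidermis reside in separate niches: the bulge and the hair germ of the follicle, the isthmus and junctional zone above them, the sebaceous gland and the basal layer between follicles. Wnt signals, amplified by R-spondins bound to LGR receptors, bring follicle stem cells into the growth phase of the hair cycle. Quiescence depends on transcription factors such as Lhx2, Nfatc1 and Tcf7l1, and Sox9 is needed to maintain the bulge. When skin is dispersed and plated, cells of several niches can enter the same dish.

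The labelled cell type was checked against marker lists, each given as summed RPKM (reads per kilobase of exon, scaled to the mapped reads of the sample) in the range over samples. The 8 KC identity genes, among them Krt5, Krt14 and Trp63, summed to 13369.8 to 15764 at 1 week and 8311 to 9920 at 3 weeks, with 2 of the 8 lower at 3 weeks by edgeR and none higher. Fibroblast markers (8 genes) summed to 3.83 to 7.06 and 2.92 to 5.97, endothelial markers (6 genes) to 0.446 to 0.657 and 0.307 to 0.556, and hematopoietic and Langerhans cell markers (8 genes) to 1.06 to 2.38 and 0.841 to 2.50, with no read for Cd207 or Mpo in any sample. Melanocyte markers (6 genes) summed to 3.54 to 21.4 and 1.64 to 5.94, and 1 of 5 tested fell. Suprabasal differentiation markers (8 genes) summed to 28.8 to 204 and 22.2 to 69.3, and 3 of 7 tested fell. Samples of 1 week correlated with each other at r of 0.966 to 0.987 across genes (log2 CPM), and those of 3 weeks at 0.907 to 0.985. Replicates 3 and 4 at 3 weeks were the least alike, so fold changes are also given without them.

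Lgr6 and Cd34 were the members whose RPKM did not overlap between the culture times, one higher and the other lower at 3 weeks. The promoter sequence just before the start of each is shown because these genes carry the difference, as the 250 bases preceding the RefSeq start site on GRCm38.p6, 5′ to 3′ on the strand of the gene. The Lgr6 stretch lies at chr1:135105277-135105526 on the minus strand and that of Cd34 at chr1:194938571-194938820 on the plus strand, with matches to the searched motifs in capitals.
Lgr6: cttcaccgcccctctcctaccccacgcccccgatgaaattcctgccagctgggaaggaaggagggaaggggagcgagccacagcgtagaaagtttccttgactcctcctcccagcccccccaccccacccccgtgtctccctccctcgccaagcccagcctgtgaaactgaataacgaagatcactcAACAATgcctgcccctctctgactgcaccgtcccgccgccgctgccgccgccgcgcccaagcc
Cd34: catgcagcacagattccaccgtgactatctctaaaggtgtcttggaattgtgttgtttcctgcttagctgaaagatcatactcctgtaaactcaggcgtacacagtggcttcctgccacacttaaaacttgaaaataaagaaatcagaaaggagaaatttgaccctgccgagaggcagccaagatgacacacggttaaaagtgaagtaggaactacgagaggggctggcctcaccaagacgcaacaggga
Windows of this kind were matched for 7 of the 10 members, without Lgr5, Sox9 and Nfatc1. They were searched on both strands for TCF/LEF motifs (CTTTGAA as well as CTTTGAT and also CTTTGTA as well as CTTTGTT), the NFAT motif TGGAAA, the SOX motif AACAAT and the LIM homeobox motif TAATTA. These letters were present in 14.8%, 18.6%, 9.42% and 4.84%, respectively, of 32851 promoter windows of the same length. The Lgr6 stretch held 1 SOX match, beginning at position -63 from the start, and the Lrig1 stretch 1 on the opposite strand, at -22. No searched letters were found in the stretches of Cd34, Lgr4, Lhx2, Tcf7l1 and Plet1. The Lgr6 stretch had 65.2% G and C with 16 CpG and that of Cd34 46.4% with 6 CpG, against medians of 52.4% and 6 CpG over all windows.

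Of the LGR receptors, which bind R-spondins at the cell surface, Lgr6 differed most between the times. Lgr6 (ENSMUSG00000042793, chr1:134983301-135105276, GRCm38) marks cells of the isthmus and of the epidermis between follicles. Its RPKM at 1 week was 0.0383, 0.0425, 0.366 and 0.157 in replicates 1 to 4, from 5, 6, 36 and 19 exon reads. At 3 weeks it was 4.49, 3.39, 2.77 and 0.606, from 573, 382, 312 and 61 reads. Every sample at 3 weeks lay above every sample at 1 week, but replicate 4 at 3 weeks was nearer to the highest 1-week sample than to the other 3-week samples. The mean was 0.151 ± 0.154 RPKM at 1 week and 2.81 ± 1.63 at 3 weeks (SD, n = 4), a ratio of 18.6, and the log2 fold change of the normalised reads was 4.45 ± 0.81 (SE). Leaving out replicate 3 at 1 week gave 5.32, without replicate 3 or 4 at 3 weeks it was 4.38 or 4.81, and the lowest value with a sample left out was 4.09. Reads across exon junctions numbered 1 to 9 per sample at 1 week and 8 to 95 at 3 weeks, and all exon reads were unique to the gene.

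Lgr4 (ENSMUSG00000050199, chr2:109917647-110014257), the receptor with the broadest expression of the family, stood at 3.82, 3.85, 4.00 and 4.12 RPKM at 1 week. The values at 3 weeks were 4.28, 3.91, 2.93 and 5.26. The groups overlapped, and the spread was wider at 3 weeks (SD 0.965 against 0.140 RPKM, n = 4 each). Its log2 fold change was 0.20 ± 0.15 (SE), or 0.28 and 0.08 without replicate 3 and replicate 4 at 3 weeks. Lgr5 (ENSMUSG00000020140, chr10:115450311-115587780), a marker of cycling stem cells in the lower bulge and hair germ, had 1, 0, 4 and 3 exon reads at 1 week and 13, 7, 3 and 3 at 3 weeks. Thus 5 of the 8 samples held 3 reads or fewer, the limit that a count of 0 allows, and Lgr5 did not pass the filter on low counts. The highest value was 0.0680 RPKM, in replicate 1 at 3 weeks, and no fold change is given.

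**Figure D1:**
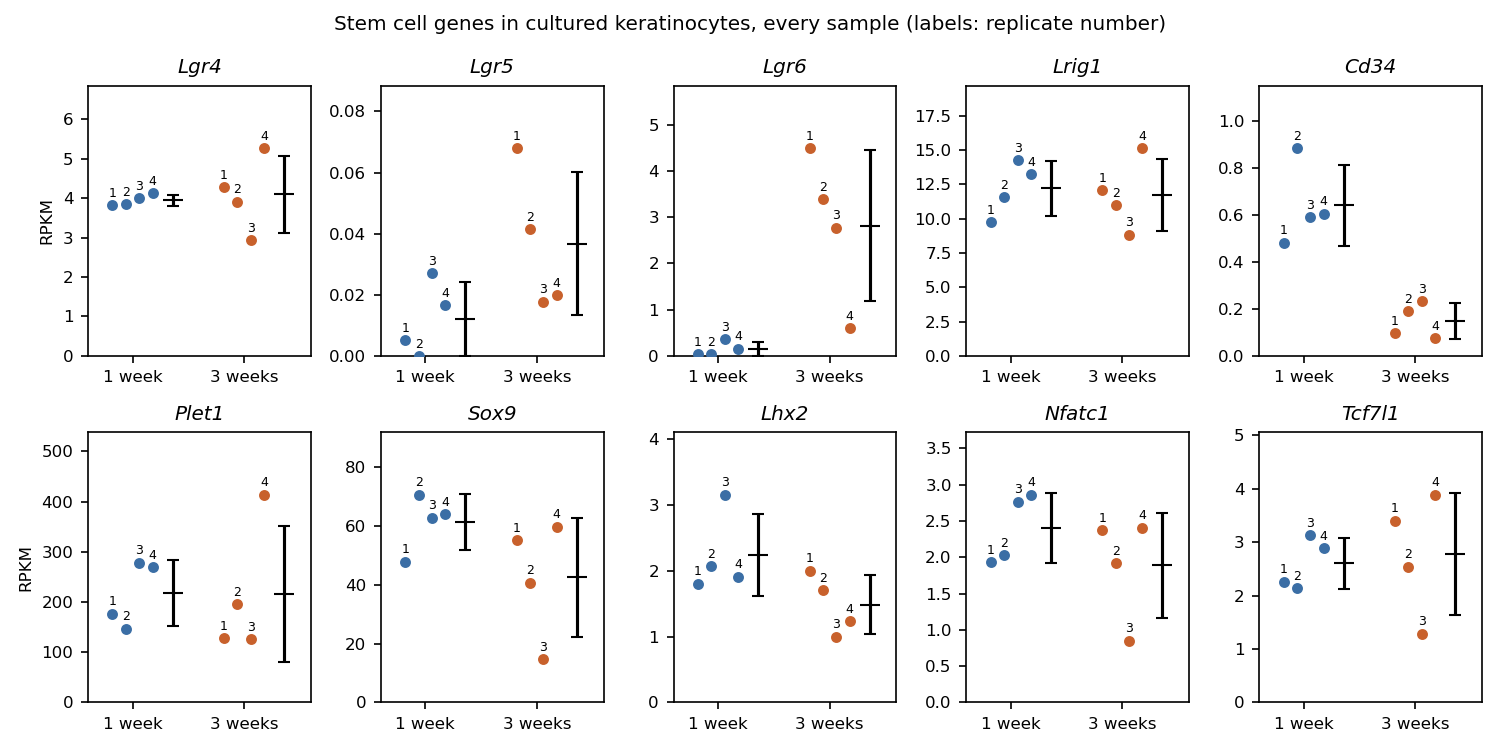
RPKM (vertical axis, linear, own scale for each gene) of the 10 genes in every KC sample, with 1-week samples in blue and 3-week samples in orange, numbered by replicate; the black bar is the mean ± SD (n = 4). The groups do not overlap for Lgr6 and Cd34, and replicate 3 at 3 weeks is the lowest 3-week point for all but these 2 genes.

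Of the 3 cell-surface proteins outside the LGR family, Cd34, Lrig1 and Plet1, Cd34 was the one whose samples did not overlap between the times. Cd34 (ENSMUSG00000016494, chr1:194938819-194961279), a sialomucin that marks the mouse bulge and is also found on endothelial and blood progenitor cells, had 67, 133, 62 and 78 exon reads at 1 week, or 0.483, 0.886, 0.592 and 0.607 RPKM. At 3 weeks it had 13, 23, 28 and 8 reads, or 0.0957, 0.192, 0.234 and 0.0747 RPKM. All 3-week samples were below all 1-week samples. The mean was 0.642 ± 0.172 RPKM at 1 week and 0.149 ± 0.0762 at 3 weeks (SD, n = 4), a ratio of 4.31, and the log2 fold change was -1.91 ± 0.41 (SE). It was -2.30 without replicate 3 and -1.69 without replicate 4 at 3 weeks. Of its exon reads 35.9% were counted as unique, and the gene overlaps Gm16897 on the opposite strand. The unique reads alone numbered 24 to 47 at 1 week and 3 to 9 at 3 weeks, and gave a log2 fold change of -2.38. The summed endothelial markers, at or below 0.657 RPKM in every sample, overlapped between the times, and so did the hematopoietic markers. Their part in the Cd34 reads was not tested.

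Lrig1 (ENSMUSG00000030029, chr6:94604529-94700158), an inhibitor of ERBB receptors that marks the junctional zone, gave 9.74, 11.6, 14.3 and 13.2 RPKM at 1 week. At 3 weeks it gave 12.1, 11.0, 8.84 and 15.1, and its log2 fold change was 0.10 ± 0.16 (SE). Without replicate 3 at 3 weeks it was 0.16, and without replicate 4 it was -0.02. The 3-week samples span the whole range of the 1-week samples. Plet1 (ENSMUSG00000032068, chr9:50494525-50505482), a glycoprotein of the upper isthmus, was the most abundant member at 177, 147, 278 and 270.02 RPKM at 1 week and 127, 196, 126 and 414 at 3 weeks. Replicate 4 at 3 weeks was the highest of the 8 samples, and the log2 fold change was 0.12 ± 0.38 (SE). It was -0.36 without that sample and 0.26 without replicate 3 at 3 weeks. Of the Plet1 exon reads 13.4% were unique, and the gene overlaps Plet1os on the opposite strand, so its level is uncertain.

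The transcription factors did not separate the culture times. Sox9 (ENSMUSG00000000567, chr11:112782224-112787760), an HMG-box factor of the bulge and outer root sheath, stood at 47.8, 70.6, 62.8 and 64.0 RPKM at 1 week and at 55.1, 40.7, 14.7 and 59.7 at 3 weeks. Replicate 3 at 3 weeks was far below the other 7 samples. The log2 fold change was -0.39 ± 0.34 (SE), and it was -0.14 without that sample and -0.58 without replicate 4 at 3 weeks. Lhx2 (ENSMUSG00000000247, chr2:38339281-38369733), a LIM homeobox factor that keeps bulge cells quiescent, gave 1.81, 2.07, 3.16 and 1.91 RPKM at 1 week. At 3 weeks it gave 2.00, 1.70, 0.998 and 1.24, and its log2 fold change was -0.43 ± 0.25 (SE). The groups met in a single sample, replicate 1 at 3 weeks, and did not overlap without it. Without replicate 3 or 4 at 3 weeks the fold change was -0.34 in both cases.

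Nfatc1 (ENSMUSG00000033016), the calcineurin-dependent factor of the bulge, stood at 1.94, 2.03, 2.76 and 2.86 RPKM at 1 week and at 2.37, 1.92, 0.852 and 2.41 at 3 weeks. Its log2 fold change was -0.20 ± 0.28 (SE). Tcf7l1 (ENSMUSG00000055799, chr6:72626378-72789254), a TCF factor that represses Wnt targets in the absence of β-catenin, gave 2.26, 2.14, 3.12 and 2.89 RPKM at 1 week. At 3 weeks it gave 3.40, 2.54, 1.29 and 3.89, and the log2 fold change was 0.24 ± 0.29 (SE). In both genes replicate 3 at 3 weeks was the lowest of the 8 samples and the other 7 were mixed between the times. Without that sample the log2 fold changes were -0.008 for Nfatc1 and 0.43 for Tcf7l1, and without replicate 4 at 3 weeks they were -0.32 and 0.06.

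**Figure D2:**
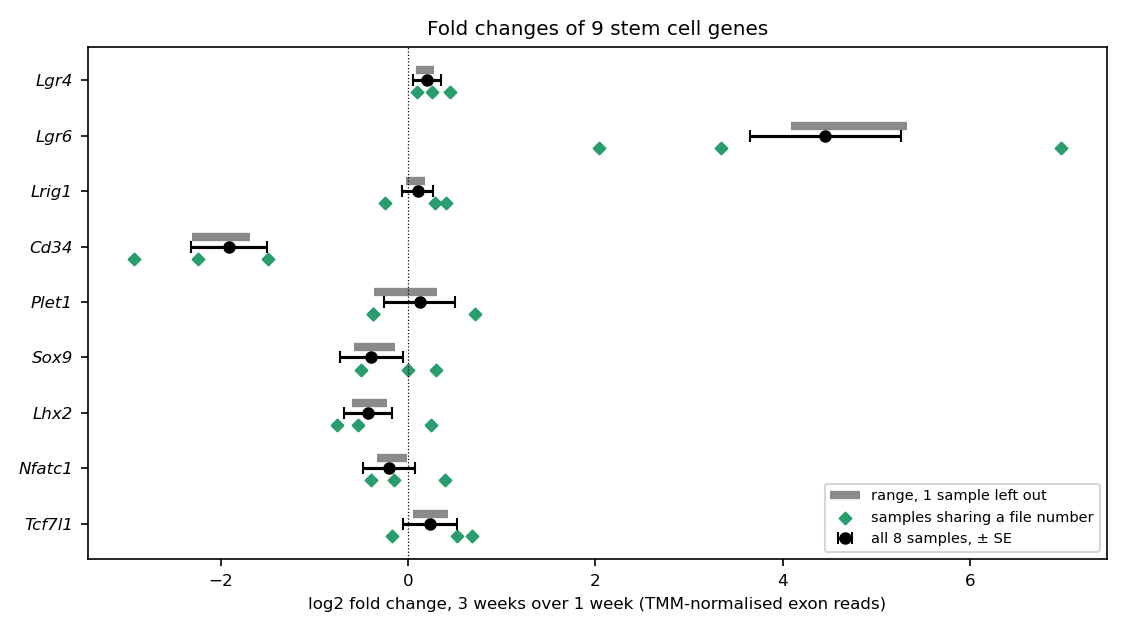
Log2 fold change of 3 weeks over 1 week (horizontal axis, TMM-normalised exon reads) for the 9 genes past the filter: black points with SE from all 8 samples, grey bars for the range over fits that omit a single sample, green diamonds for the 3 pairs of samples sharing a file number. Lgr6 lies between 2.04 and 6.97 and Cd34 between -2.93 and -1.50 in the 3 pairs, while the other genes lie between -0.76 and 0.71.

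Across all genes, edgeR called 4127 of 12590 tested (Benjamini-Hochberg adjusted p under 0.05), or 32.8%, with 1981 (15.7%) higher and 2146 (17.0%) lower at 3 weeks. Batches were not part of this fit. With the replicate number as a block 2867 genes were called (1309 higher and 1558 lower), and with the file number that 3 samples of each time share as a block, 3109 (1316 higher and 1793 lower). Of the genes called without a block 48.0% were higher, against 29.8% and 29.3% by limma on log2 RPKM with pseudocounts of 0.1 and 1, a scale on which the median of all genes was -0.16 and -0.10 in place of 0.03. Lgr6 and Cd34 were called, 2 of the 9 members tested. On the RPKM scale 1 member was higher without overlap, as were 10.8% of tested genes, and 1 was lower without overlap, as were 26.2%. Since the members were chosen on this contrast, nothing is read from these counts.

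The names of the deposited files carry a number that 3 samples of each time share, whose meaning is not given in the sources used here. Within these pairs Lgr6 was higher at 3 weeks by 6.97, 3.34 and 2.04 on the log2 scale (numbers 46, 49 and 90). Cd34 differed by -2.24, -1.50 and -2.93, and Lgr4 by 0.26, 0.10 and 0.45. The other 6 tested members had differences of both signs. The size of the Lgr6 difference thus varied widely between the pairs.

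Levels were ordered by mean RPKM, which corrects for exon length. At 1 week the order was Plet1 (218), Sox9 (61.3), Lrig1 (12.2), Lgr4 (3.95), Tcf7l1 (2.60), Nfatc1 (2.40), Lhx2 (2.23), Cd34 (0.642), Lgr6 (0.151) and Lgr5 (0.0122). Neighbours from Tcf7l1 to Lhx2 overlapped in their sample ranges, and all other neighbours were apart. At 3 weeks Lgr6 moved from place 9 to place 5, with a mean of 2.81 RPKM beside Lgr4 (4.09) and Tcf7l1 (2.78), whose ranges it overlapped. Sox9 and Lrig1, and the neighbours from Tcf7l1 to Lhx2, also overlapped at 3 weeks. Among all 41457 genes Lgr6 went from place 13261 to place 7674 and Cd34 from 11034 to 13320. Of the exon reads only 13.4% were unique for Plet1 and 35.9% for Cd34, so their places are uncertain.

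In single samples many of the tested members stood low or high, while others stood the opposite way. Replicate 3 at 3 weeks had the lowest RPKM of the 4 for 7 of the 9 tested members, and it was the lowest for 41.0% of all tested genes. Replicate 4 at 3 weeks had the highest RPKM for 6 of the 9 members, against 38.3% of all genes, and the lowest for Lgr6 and Cd34. In replicate 3 the 3150 tested genes with an exon length of at least 6726 bases (long genes) lay at a median of -0.36 log2 units from the mean of the other 3 samples. The 3148 short genes, of at most 2710.3 bases, lay at 0.40. In replicate 4 these medians were 0.27 and -0.29. Among 1-week samples, replicate 1 had the lowest RPKM for 7 of the 9 members, against 30.0% of all genes, with medians of -0.16 and 0.13 for long and short genes. Of the 9 members, 3 (Lgr6, Cd34 and Nfatc1) were long genes and 1 (Plet1) was a short gene. In replicate 3 at 3 weeks Lgr6 lay at 0.59, Cd34 at 1.15, Nfatc1 at -1.17 and Plet1 at -0.59 log2 units. The part of transcript length in the low values was not tested.

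**Figure D3:**
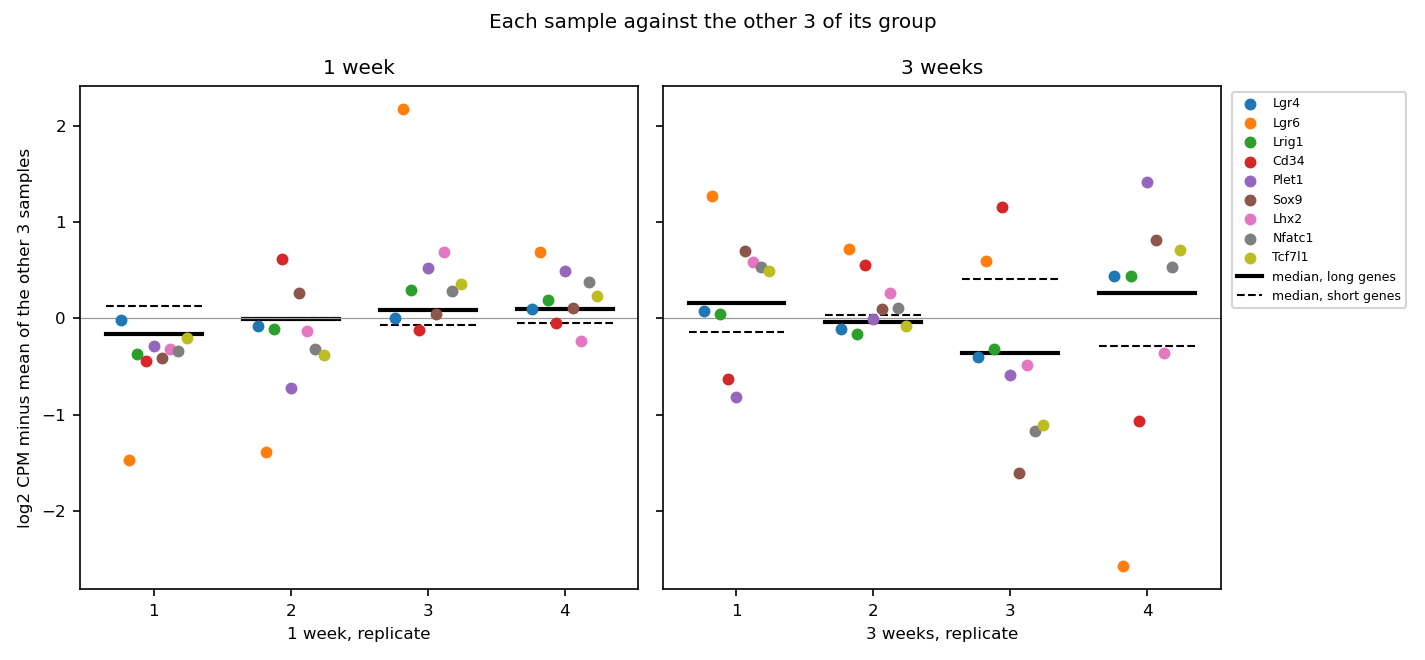
Deviation of each sample from the mean of the other 3 samples of its group (vertical axis, log2 CPM after TMM) for the 9 tested genes, with 1 week on the left and 3 weeks on the right; solid black lines are medians over long genes and dashed lines over short genes, as defined in the text. In replicate 3 at 3 weeks 7 of the 9 genes lie below 0, among them Nfatc1 (long) and Plet1 (short). Lgr6 and Cd34 (both long) lie above 0. Over all tested genes, long genes have a median of -0.36 there and short genes of 0.40.

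Genes with the profile most like each member over the 8 samples were sought among 12031 others by the root mean square difference of centred log2 CPM. Olr1, which was not the nearest to Lgr6, lay at 0.88 log2 units from it, the largest distance given here. The mean of Olr1 was only 0.0134 RPKM at 1 week and 0.537 at 3 weeks. The nearest to Cd34 were Lmo1 and Tinf2, both at 0.35. Lgr4 ran alongside Ranbp9 (0.04) and Ap2a1 (0.05), Nfatc1 alongside Cnot3 (0.05) and Kank1 (0.07), and Lrig1 alongside Tfeb (0.06) and Thoc2 (0.06). For Sox9 they were Meis1 (0.09) and Lmx1b (0.10), for Tcf7l1 Kdm2a (0.09) and Lrp5 (0.09), for Plet1 Grhl3 (0.14) and Tbl1xr1 (0.19), and for Lhx2 4930556M19Rik (0.17). These likenesses describe 8 samples that share culture times and were not tested.

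Genes around the members were grouped in 10 lists, holding 127 genes, of which 88 passed the filter. Of these, 14 rose and 21 fell at 3 weeks (39.8% called, against 32.8% of all tested genes), with a median log2 fold change of 0.01 beside 0.03 over all genes. With either block 25 of the genes were called in place of 35. Adjusted p-values in the following are from edgeR's quasi-likelihood test over all 12590 genes, with 4 samples a group. The lists were chosen with earlier results of these data known. The called share and the p-values therefore describe the genes and are no independent support. Values in parentheses are log2 fold changes ± SE, and RPKM values are means ± SD.

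Among 20 LGR ligands, Wnt receptors and other Wnt pathway genes such as Ctnnb1 and Axin2, 14 were tested. Of these, 3 rose and 2 fell, with a median of 0.21. The Frizzled receptors Fzd4 (-1.59 ± 0.32, adjusted p = 0.00575) and Fzd10 (-1.49 ± 0.36, adjusted p = 0.0123) fell, Fzd4 from 23 to 56 reads per sample to 8 to 10. The receptor Fzd8 rose (0.66 ± 0.14, adjusted p = 0.00635). Of 10 TCF/LEF factors and corepressors, 8 were tested, 1 rose and 2 fell, with a median of -0.11. Tcf7, the TCF factor that activates Wnt targets with β-catenin, fell (-1.57 ± 0.20, adjusted p = 0.000679), from 3.99 ± 0.488 to 1.21 ± 0.299 RPKM (SD). Only 18.4% of its reads were unique, and it overlaps A630014C17Rik. The corepressor Tle1 fell (-0.86 ± 0.17, adjusted p = 0.00521), and Aes, a short relative of the TLE corepressors, rose (0.69 ± 0.11, adjusted p = 0.00205).

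Of 15 other markers of the bulge, 13 were tested, 3 rose and 2 fell, with a median of 0.35. Gas1, a surface protein that binds Hedgehog ligands, fell from 0.951 ± 0.249 to 0.146 ± 0.0272 RPKM (-2.51 ± 0.31, adjusted p = 0.000664). The keratin Krt19 rose (1.87 ± 0.63, adjusted p = 0.0491), but its 3-week values ran from 1.19 to 8.26 RPKM. Its fold change was 1.02 without replicate 4 at 3 weeks, and the call was lost without any 1-week sample or without replicate 3 or 4 at 3 weeks (adjusted p up to 0.118). The matrix protein Tnc rose (1.57 ± 0.45, adjusted p = 0.0265), with a single 3-week sample, at 42.1 RPKM, below the 1-week range. Its call was lost without replicate 1, 3 or 4 at 1 week or replicate 1 at 3 weeks (adjusted p up to 0.0825). Over the alternatives in which they were tested the adjusted p ranged from 0.00842 to 0.300 for Krt19 and from 0.00161 to 0.111 for Tnc. Of the reads 77.6% were unique for Gas1 and 47.5% for Tnc, each of which overlaps a gene on the opposite strand.

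Of 12 markers of the upper follicle and sebaceous gland, 8 were tested, 1 rose and 2 fell, with a median of 0.05. The glutathione transferase Mgst1 rose from 4.98 ± 1.13 to 14.9 ± 5.97 RPKM (1.75 ± 0.31, adjusted p = 0.00305). The stearoyl-CoA desaturase Scd1, a lipid enzyme of the sebaceous gland, fell (-0.96 ± 0.23, adjusted p = 0.0131). Krt79, a keratin of the infundibulum, fell (-2.07 ± 0.68, adjusted p = 0.0454), but the call was lost without replicate 3 or 4 at 1 week or any 3-week sample (adjusted p up to 0.120, and from 0.0106 to 0.145 over the alternatives in which it was tested). Of 12 markers of the basal layer between follicles, 11 were tested, 1 rose and 4 fell, with a median of -0.32. Krt5, the keratin of basal KCs, fell from 6170.4 ± 156 to 2207 ± 269.7 RPKM (-1.32 ± 0.18, adjusted p = 0.00103). Dlx1 fell from 40 to 63 reads per sample to 5 to 8 (-2.74 ± 0.28, adjusted p = 0.000363), but 2.61% of its reads were unique and it overlaps Dlx1as. The surface antigen Ly6a fell (-0.86 ± 0.29, adjusted p = 0.0465), with the call lost without any sample but replicate 4 at 3 weeks (adjusted p up to 0.115, the highest of its alternatives, with 0.000509 the lowest).

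Of 12 genes of the Hedgehog pathway, which drives growth of the follicle, 7 were tested, none rose and 2 fell, with a median of -0.20. The transcription factor Gli2 fell from 28 to 49 reads per sample to 1 to 8 (-3.10 ± 0.51, adjusted p = 0.00223). The signal transducer Smo fell (-0.44 ± 0.13, adjusted p = 0.0297), with the call lost without replicate 3 or 4 at 1 week or replicate 1 or 2 at 3 weeks (adjusted p up to 0.0777, and from 0.00229 to 0.0795 over its alternatives). The ligand Shh had no read in any sample. Of the 6 paralogs and receptor targets of Lrig1, all tested, only Met fell (-0.97 ± 0.25, adjusted p = 0.0174) and none rose, with a median of 0.14. Met, the receptor of hepatocyte growth factor, lost the call without replicate 4 at 1 week or replicate 1 at 3 weeks (adjusted p up to 0.0519, the highest of its alternatives, with 0.00123 the lowest).

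Of 12 genes of the calcineurin and NFAT group around Nfatc1, 10 were tested, 3 rose and 2 fell, with a median of 0.20. Nfatc2 rose from 1 to 5 reads per sample to 11 to 19 (2.33 ± 0.45, adjusted p = 0.00461), but the call was lost by limma with a pseudocount of 1 (adjusted p = 0.124, the highest of its alternatives, with 0.000615 the lowest). Nfat5, the osmosensitive member of the family, rose from 1.36 ± 0.352 to 3.33 ± 1.37 RPKM (1.43 ± 0.29, adjusted p = 0.00612). The calcineurin subunit Ppp3cc fell (-0.89 ± 0.25, adjusted p = 0.0251), with 56.3% unique reads and with the call lost without replicate 2 at 1 week, without replicate 1 at 3 weeks or on unique reads (adjusted p up to 0.0711, and down to 0.00455 over its alternatives).

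Of 14 other SOX genes, 8 were tested, 1 rose and 2 fell, with a median of -0.04. Sox11, a factor of fetal skin, rose from 1.20 ± 0.611 to 4.70 ± 0.734 RPKM (2.14 ± 0.33, adjusted p = 0.00158). Sox15 fell from 27.0 ± 5.46 to 5.14 ± 2.97 RPKM (-2.21 ± 0.48, adjusted p = 0.00763). Sox7 fell from 10 to 94 reads per sample to 0 to 11 (-3.09 ± 0.98, adjusted p = 0.0390). Its fold change was -4.35 without replicate 4 at 3 weeks and -2.32 without replicate 4 at 1 week, and the call was lost without replicate 3 or 4 at 1 week or replicate 1, 2 or 3 at 3 weeks (adjusted p up to 0.113, the highest of its alternatives, with 0.00613 the lowest). Of 15 LIM homeobox paralogs and cofactors, 3 were tested, 1 rose and 2 fell, with a median of -0.93. The LIM-only protein Lmo1 fell from 14.3 ± 3.13 to 3.21 ± 1.45 RPKM (-1.96 ± 0.37, adjusted p = 0.00418), and Lmo4 fell (-0.93 ± 0.30, adjusted p = 0.0392). Lmo4 lost its call without replicate 1 or 2 at 1 week or replicate 1, 2 or 4 at 3 weeks (adjusted p up to 0.104, the highest of its alternatives, with 0.0120 the lowest). Ldb1, which bridges LIM proteins, rose (0.51 ± 0.12, adjusted p = 0.0106), and limma on log2 RPKM did not call it.

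**Figure D4:**
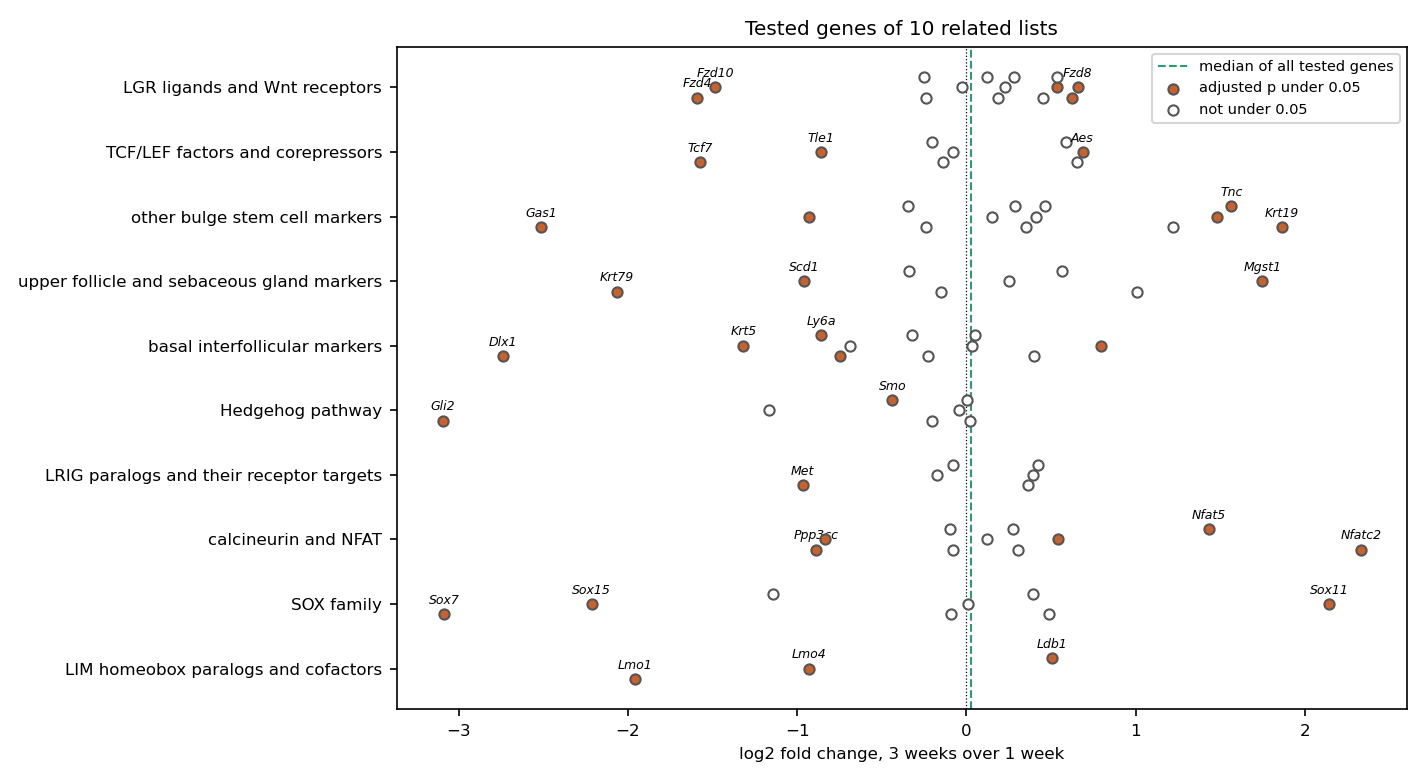
Log2 fold change of 3 weeks over 1 week (horizontal axis) for the tested genes of the 10 lists (rows), filled where edgeR's adjusted p is under 0.05, with the genes described in the text labelled; the green dashed line is the median of all 12590 tested genes, 0.03. Of the 88 tested genes 14 are filled to the right and 21 to the left.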

How the data were processed

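KCs of 2 culture times (4 samples each) were analysed from 1 gene table per sample. The authors isolated poly(A) RNA, trimmed the reads and aligned them to GRCm38 with CLC Genomics Workbench at default RNA-seq settings; the annotation release and the strand setting are not given in the sources used here. The deposited count columns hold whole, unnormalised reads per gene on exons, introns and exon junctions, and unique reads on exons. The deposited RPKM values, written with decimal commas, are exon reads divided by exon length in kilobases and scaled to the mapped reads of the sample. Without strand, reads of overlapping antisense genes cannot be told apart. Besides Cd34 and Plet1, the members Lgr5, Lrig1, Lhx2 and Tcf7l1 overlap genes on the opposite strand. Of their exon reads 100%, 98.9%, 89.5% and 83.5% were unique, respectively.

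The test was the quasi-likelihood F test of edgeR 4.0.16 (R 4.3.3) on total exon reads, after filterByExpr and TMM normalization, with all 8 samples unpaired, as in the unpaired tests of the study, although KC batches were shared between the times. P-values were adjusted by Benjamini-Hochberg and called under 0.05, and standard errors came from the F statistics. Alternatives used DESeq2 1.42.0, limma 3.58.1 on log2 RPKM with pseudocounts of 0.1 and 1, other filters, normalizations and read classes, blocks, and each sample left out. The main edgeR fit alone was also run on simulated counts with 200 changed genes, far fewer than were called here. The outcome of that run is not reported here. Python 3.11.15 and matplotlib 3.10.9 were used for summaries and figures. The members and the gene lists were chosen with earlier results of these data known. All 10 members are named; of each list, up to 3 called genes with the largest change are named; the 2 genes most like each member were sought among genes with at least 1 CPM, and some of them are not reported here. Promoters are RefSeq windows on GRCm38.p6. TPM values were not used. Replicates within a time are labelled as independent experiments. Counting limits (3 reads for a count of 0) cover counting error only.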

Additional observations from a re-analysis of the deposited data

Results flagged for a closer look

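The highest or lowest sample of each group of 4 was compared with the others by the ratio of its gap to the range of the group, with Dixon's critical value as the limit. None of the 20 groups of the 10 stem cell genes passed this limit. Of the 54 groups of the 27 described pathway genes 3 did, where chance gives about 1 in 20. Fzd4 stood at 0.101 RPKM in replicate 4 at 3 weeks, above 0.0719 to 0.0725 in the other 3 samples, which is a difference of at most 2 reads. Fzd8 stood at 1.54 RPKM in replicate 3 at 1 week, above 1.28 to 1.31 in the others. Aes stood at 97.4 RPKM in the same sample, above 83.0 to 84.2 in the others.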

How the results depend on the processing

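Lgr6 and Cd34 were chosen on this contrast, so their values under other settings are a description and no sign of stability. When at least 10 reads were required in every sample both were removed, which left 0 members called and 0 without overlap in either direction. This filter also removed the described genes Fzd4, Gas1, Krt79, Dlx1, Gli2, Nfatc2 and Sox7. It left 27 called genes of the pathway lists in place of 35. With a pseudocount of 1 on RPKM the log2 fold changes were smaller, 1.60 for Lgr6 and -0.51 for Cd34, since both had low values. Leaving out 1 sample gave 3015 to 4861 genes called, 1371 to 2284 higher and 1631 to 2667 lower, 2 members called in every case, and 26 to 37 called genes of the pathway lists. It gave 1 to 2 members higher without overlap and 1 to 2 lower: Lgr5 joined Lgr6 without replicate 3 at 1 week, Sox9 joined Cd34 without replicate 1 at 1 week, and Lhx2 joined Cd34 without replicate 1 at 3 weeks. For Lgr5 the nearest samples, replicate 4 at 1 week and replicates 3 and 4 at 3 weeks, held 3 reads each. Genes called higher numbered 1313 and 1281 by limma with pseudocounts of 0.1 and 1. With the replicate number as a block 2867 genes were called, 1309 of them higher, and with the shared file numbers as a block (6 samples paired) 3109, 1316 of them higher. Both blocks called 2 members and 25 genes of the pathway lists in place of 35. Same-numbered replicates deviated from their group means with correlations across genes of -0.227, -0.146, -0.146 and 0.249, so the numbers were not taken to mark the shared batches. Not every sample correlated best with its own number. For the pairs sharing a file number the correlations were -0.227 (number 46), 0.200 (49) and 0.249 (90). With the shared file numbers as a block Fzd4, Fzd8, Krt19, Ly6a, Ppp3cc, Lmo4 and Ldb1 lost their calls, and with the replicate block Krt19, Tnc, Krt79, Scd1, Smo, Ppp3cc and Ldb1; the cause was not tested. No value changed its direction among called members or described pathway genes. Genes removed by the filter on low counts, Lgr5 among them at 0 to 13 reads per sample, have no test in the main comparison.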

Other observations

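Deviations from the group mean were correlated across genes for all 16 combinations of a 1-week and a 3-week sample. The highest correlation, 0.416, was between replicate 1 at 1 week and replicate 3 at 3 weeks, which share neither a replicate number nor a file number. In each of these samples 7 of the 9 tested stem cell genes had the lowest RPKM of their group, but not the same 7. Lgr6 and Cd34 were lowest in replicate 1 at 1 week only, Tcf7l1 and Plet1 in replicate 3 at 3 weeks only. Long and short genes lay at medians of -0.16 and 0.13 log2 units from the other samples of the group in the former and at -0.36 and 0.40 in the latter. The order was the same, with smaller gaps, in replicate 2 at 1 week (-0.01 and 0.01) and replicate 2 at 3 weeks (-0.04 and 0.04). The lowest, -0.285, was between replicate 4 at 1 week and replicate 3 at 3 weeks. The values describe genes of 8 samples, which are not independent, and were not tested.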
